A study of Mus musculus with 7 samples.

Results

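The T cell receptor alpha and delta locus of the mouse was described through its 202 gene segments, out of 49943 genes in the RefSeq table of genome build GRCm38.p6. The segments are the genes on chromosome 14 whose symbols begin with Trav, Trdv, Trdd, Trdj, Trdc, Traj or Trac. This rule uses name and position and no peak, but it was set with earlier results of these data known. They comprise 130 Trav, 6 Trdv, 2 Trdd, 2 Trdj, 1 Trdc, 60 Traj and 1 Trac, and they span chr14:52427967-54224198, a length of 1796.2 kb. A segment was counted as held by a factor when a peak touched it, or the 1 kb on either side of it, in at least 2 of that factor's 3 libraries.

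The antigen receptor of most T cells is a pair of an alpha and a beta chain, and the gene of the alpha chain is put together in each cell by V(D)J recombination, which joins a variable segment (Trav) to a joining segment (Traj) that is then spliced to the constant gene (Trac). The delta chain is made from diversity, joining and constant segments (Trdd, Trdj, Trdc) that lie between the Trav and Traj segments, so a Trav to Traj joining removes them from that chromosome. An enhancer and further regulatory sites lie between Trac and the next gene, Dad1, and LEF1 and TCF1 are related HMG-box proteins, of which LEF1 is known for binding the alpha enhancer.

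Peaks came from CUT&RUN, a method that tethers micrococcal nuclease to an antibody, so that DNA next to the antibody's target is cut out and sequenced. The groups used were 3 LEF1 libraries and 3 TCF1 libraries, all from spleen CD8 T cells of WT genotype with the transgenic P14 receptor, sorted as CD8+, Ly5.1+, CD44- and CD62L+, a gate for naive cells that have not met antigen. The series also labels an input control without antibody, from a Ly5.1- and CD44+ gate, for which no peak list was used here. The labels give neither the age of the animals nor whether each replicate had its own animal, so the p-values below refer to the spread among libraries, and that spread may be technical. The P14 alpha chain uses Valpha2, which the Trav14 family encodes, and reads from the rearranged transgene and from the native locus cannot be told apart in the peak lists. A Trav to Traj joining on the native locus removes the stretch between the joined segments, and the share of such chromosomes was not measured. Peak density along the locus therefore cannot be told apart from copy number.

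The LEF1 lists held 23704 to 37646 peaks and the TCF1 lists 11423 to 25623, and TCF1 replicate 3 had the shortest list of the 6. Read totals were not given, so differences in peak number were also computed with the 11423 strongest peaks of each list by −log10 q, and without TCF1 replicate 3. All 8 T cell and CD8 marker genes were held by LEF1 and all 8 by TCF1, against 2 of 6 B cell markers (Cd79a and Pax5), 2 of 6 myeloid markers (Itgam and Spi1) and 0 of 5 erythroid markers for either factor. Of all genes, 26% were held by LEF1 and 24.1% by TCF1. Of 4 natural killer cell markers, LEF1 held 1 (Klrk1) and TCF1 held 0.

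Sequences were at hand for promoters only, and those shown are the RefSeq promoter windows (GRCm38.p6) of 3 genes, each from 250 bases before to 50 bases after the gene's start. None of the 202 segments has a window in that table. The windows shown were touched by peaks in at least 5 of the 6 libraries, that of Gm30275 only at its edge, over 1 to 45 of its 300 bases. The windows of Olfr1509, Olfr1508, Gm36448 and Gm30214 also lie inside the locus, had no peak in any library and are not printed. Among them, Olfr1509 held CTTTGT and CTTTGA, Gm36448 held CTTTGA, and Olfr1508 and Gm30214 held neither. Of the 3 genes shown, 2 lie inside the locus, next to Trdv2-2 and between Trdj1 and Trdj2. The third, Dad1, encodes a subunit of the oligosaccharyltransferase and is the first gene past Trac. Its window is almost the same stretch as that of the divergent gene Abhd4, so only the Dad1 window is printed. A second Abhd4 window, chr14:54259033-54259332, lay under peaks in LEF1 replicate 2 and TCF1 replicate 1 only and held 1 CTTTGT. The 3 printed windows belong to genes on the minus strand, and the sequences are given 5′ to 3′ on that strand, with capitals for CTTTGA or CTTTGT on either strand, the core letters of the site that LEF1 and TCF1 are known to bind.
Gm30392, chr14:53961603-53961902: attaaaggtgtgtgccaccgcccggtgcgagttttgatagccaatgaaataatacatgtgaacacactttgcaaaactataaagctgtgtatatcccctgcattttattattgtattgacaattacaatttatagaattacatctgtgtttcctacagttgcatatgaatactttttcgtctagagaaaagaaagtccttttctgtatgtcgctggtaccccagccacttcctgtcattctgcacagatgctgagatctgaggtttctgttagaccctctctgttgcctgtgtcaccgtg
Gm30275, chr14:54125684-54125983: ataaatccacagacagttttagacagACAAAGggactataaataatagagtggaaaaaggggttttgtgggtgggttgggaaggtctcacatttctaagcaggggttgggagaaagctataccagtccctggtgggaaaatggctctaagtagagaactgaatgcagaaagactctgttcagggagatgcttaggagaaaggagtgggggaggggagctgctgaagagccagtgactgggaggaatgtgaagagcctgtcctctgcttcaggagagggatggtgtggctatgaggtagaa
Dad1, chr14:54253880-54254179: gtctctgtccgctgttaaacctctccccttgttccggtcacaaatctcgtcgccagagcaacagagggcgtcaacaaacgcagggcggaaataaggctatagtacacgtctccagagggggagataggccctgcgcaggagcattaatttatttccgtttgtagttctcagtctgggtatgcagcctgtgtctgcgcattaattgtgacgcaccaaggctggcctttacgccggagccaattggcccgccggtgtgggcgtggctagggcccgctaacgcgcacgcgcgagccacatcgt
Of the 3 printed windows, Gm30275 held 1 match, ACAAAG, which is CTTTGT on the other strand, and the other printed windows held none. For scale, 31.3% of all 32544 windows in the table held at least 1 of these motifs, 16% CTTTGA and 18.7% CTTTGT. A match is a description of letters and not a binding site.

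The locus was dense in peaks of both factors. It held 97, 119 and 84 peaks in LEF1 replicates 1, 2 and 3, against 77, 72 and 24 peaks in TCF1 replicates 1, 2 and 3. Per Mb this was 54, 66.2 and 46.8 peaks for LEF1 and 42.9, 40.1 and 13.4 for TCF1. The rest of chromosome 14 held 7.84, 11 and 6.55 peaks per Mb for LEF1 and 7.32, 6.37 and 3.09 for TCF1. The locus was therefore the denser one in all 6 libraries, by 6.03 to 7.14 times for LEF1 and by 4.33 to 6.3 times for TCF1. The mean difference was 36.9 peaks per Mb (exact sign-flip permutation test over 6 libraries, two-sided p = 0.031, the smallest this design allows), and it was 12.6 peaks per Mb with lists of equal size, at the same p. Over the 10 tests given here, Benjamini-Hochberg adjustment of the exact permutation p-values gave 0.125 for the 8 tests that reached their smallest p, so none passed 0.05 after it.

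LEF1 libraries had more peaks in the locus than TCF1 libraries, and the difference was smaller with lists of equal size. LEF1 lists were also longer on average, so factor and list length cannot be told apart here. Means were 100 ± 17.7 peaks for LEF1 and 57.7 ± 29.3 for TCF1 (SD, n = 3 each), with no overlap between the groups, a difference of 42.3 (exact permutation test, two-sided p = 0.1, the smallest that 3 against 3 libraries allow). The difference was 25.5 without TCF1 replicate 3 and 5.67 with lists of equal size. In lists of equal size the locus held 30, 33 and 30 peaks for LEF1 and 25, 27 and 24 for TCF1, again without overlap (exact permutation p = 0.1). Per 10000 listed peaks, the locus took 35.1, 31.6 and 35.4 in LEF1 libraries and 30.1, 31.4 and 21 in TCF1 libraries, a difference of 6.54 (exact permutation p = 0.1) and of 3.29 without TCF1 replicate 3 (exact permutation p = 0.2). Peaks covered 40.2 ± 10 kb of the locus in LEF1 libraries and 20.5 ± 12 kb in TCF1 libraries (SD, n = 3 each; exact permutation p = 0.1). That difference of 19731.3 bp was 13038.5 bp without TCF1 replicate 3 and 5646 bp with lists of equal size.

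The peaks of the locus were near the middle of their own lists in strength. The median percentile by fold enrichment, where low means strong, was 55.9, 49 and 58.8 in LEF1 libraries and 56.2, 60.2 and 64.9 in TCF1 libraries. The difference of -5.86 points did not pass the test (exact permutation p = 0.2), and leaving out LEF1 replicate 2 moved it to -3.05 points, leaving out TCF1 replicate 3 to -3.63 points. Strength was very uneven along the locus, as the following intervals show.

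**Figure D1:**
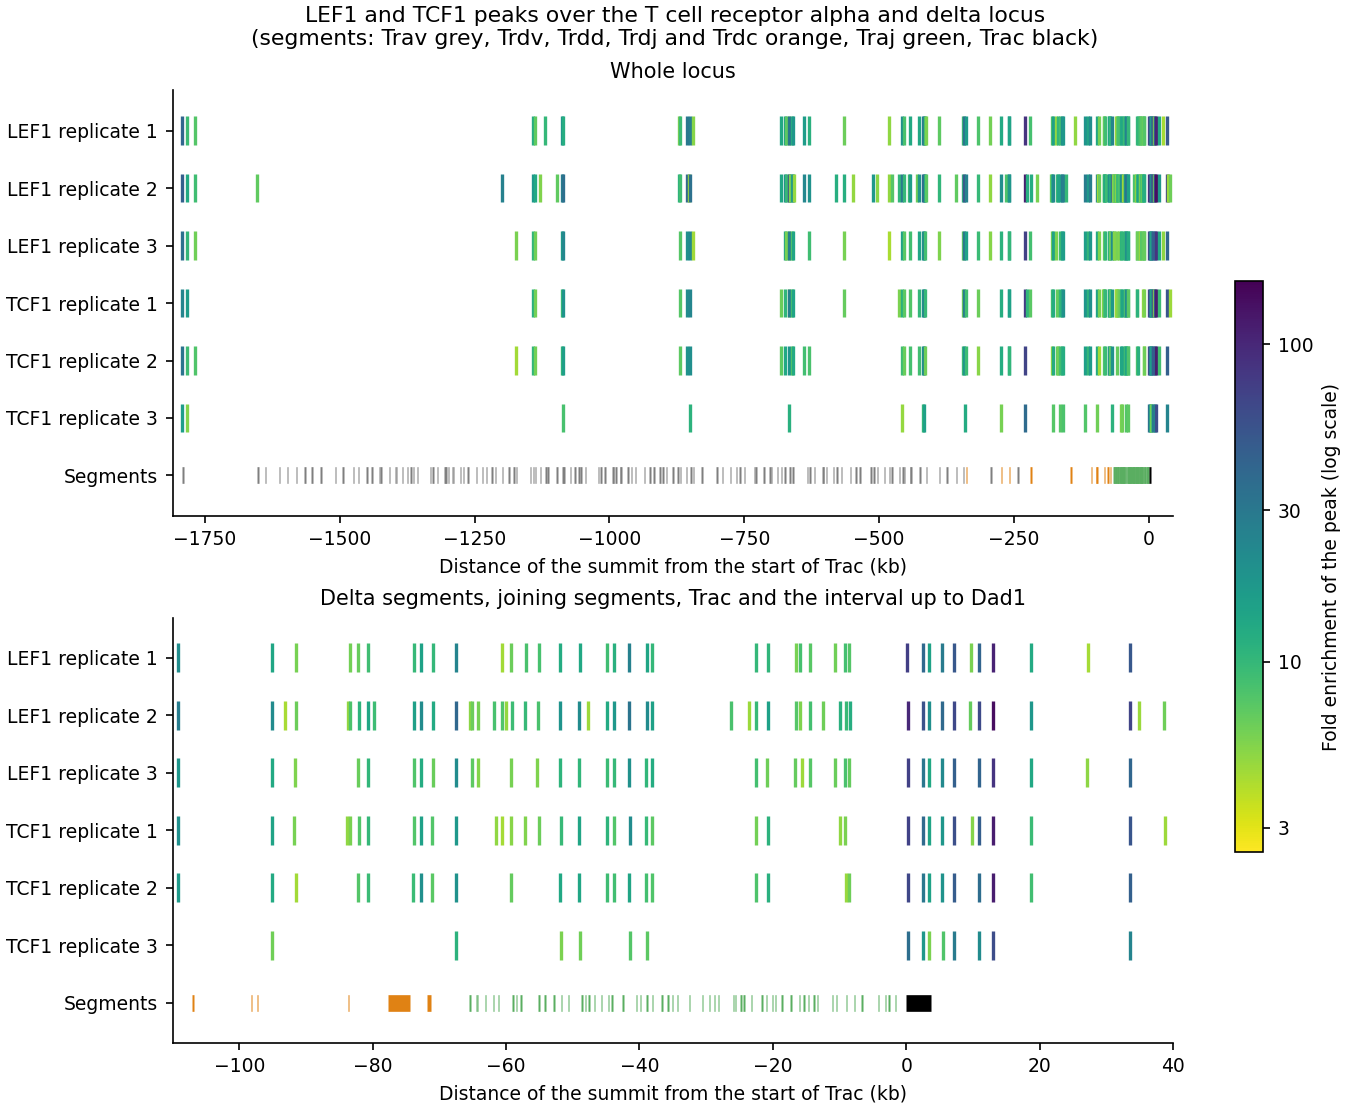
Each tick is the summit of a peak, at its distance in kb from the start of Trac (x axis), for the 3 LEF1 libraries above the 3 TCF1 libraries, with colour for fold enrichment on a log scale and the gene segments in the bottom row. The upper panel shows the whole locus and the lower panel its last part up to Dad1: peaks were sparse over the first Trav segments, numerous over the Traj segments and mostly strong from Trac onwards.

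Of the 10 best-ranked regions from Trav1 to Dad1, 5 lay at or beyond Trac, the constant gene of the alpha chain (gene ID 100101484, chr14:54220521-54224198). From the start of Trac to the near end of Dad1, a distance of 15 kb, there were 9, 9 and 7 peaks in LEF1 libraries and 8, 7 and 8 peaks in TCF1 libraries. The factors differed there by 0.667 peaks (exact permutation p = 0.6), and with lists of equal size the difference turned to -0.333. Trac itself carried 3 peaks in every one of the 6 libraries, when peaks are counted that overlap the gene.

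The best-ranked region of the whole interval was chr14:54232399-54234057, which starts 8.2 kb past the end of Trac and ends 1.43 kb before Dad1. Its fold enrichment was 106.2, 139.1 and 85.1 in LEF1 libraries and 113.5, 113.7 and 60 in TCF1 libraries. It stood within the best 0.162% to 0.515% of peaks in each list. Its summit fell on 54233464 or 54233471 in all 6 libraries, a spread of 7 bp.

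The start of Trac was next within this stretch, as a narrow region at chr14:54220515-54220796 with 73.4, 100.2 and 70.7-fold enrichment in LEF1 libraries and 69.9, 65.5 and 35.9-fold in TCF1 libraries. Its summits lay within 12 bp of each other, inside the gene, and its peaks reached only 4 to 6 bases before the gene's start in the 6 libraries. Reads from the transgene cannot be told apart there from those of the native locus, and their part in this peak was not tested. A second region inside Trac, chr14:54222104-54223118, had 38.9, 55.6 and 30.5-fold enrichment in LEF1 libraries and 38.7, 30.8 and 17.5-fold in TCF1 libraries. The summits of that region lay within 8 bp. All 4 main regions between Trac and Dad1 were also found in all 6 libraries.

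These intergenic regions began 0.756, 2.67, 6.66 and 8.2 kb past the end of Trac. The one at 2.67 kb, chr14:54226863-54228553, had 51.5, 64.3 and 44.9-fold enrichment in LEF1 libraries and 58.8, 47.6 and 28.6-fold in TCF1 libraries. The one at 6.66 kb, chr14:54230854-54231798, had 42.7, 62 and 42.6-fold enrichment in LEF1 libraries and 46.6, 36.9 and 21.7-fold in TCF1 libraries. The one at 0.756 kb was weaker, with 28.7, 38.5 and 22.4-fold for LEF1 and 18.1, 18.9 and 7.84-fold for TCF1. Another, faint region at 5.74 kb was listed in LEF1 replicates 1 and 2 and TCF1 replicate 1 only, at 5.41 to 6.71-fold.

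Past the locus, the shared promoter of Dad1 and Abhd4, which encodes a lipid hydrolase, had a peak in all 6 libraries. The region chr14:54253678-54254498 had 51.3, 68.3 and 41.3-fold enrichment in LEF1 libraries and 53.4, 45.2 and 24.3-fold in TCF1 libraries. It covered all 300 bases of the Dad1 window printed above, which holds neither motif.

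**Figure D2:**
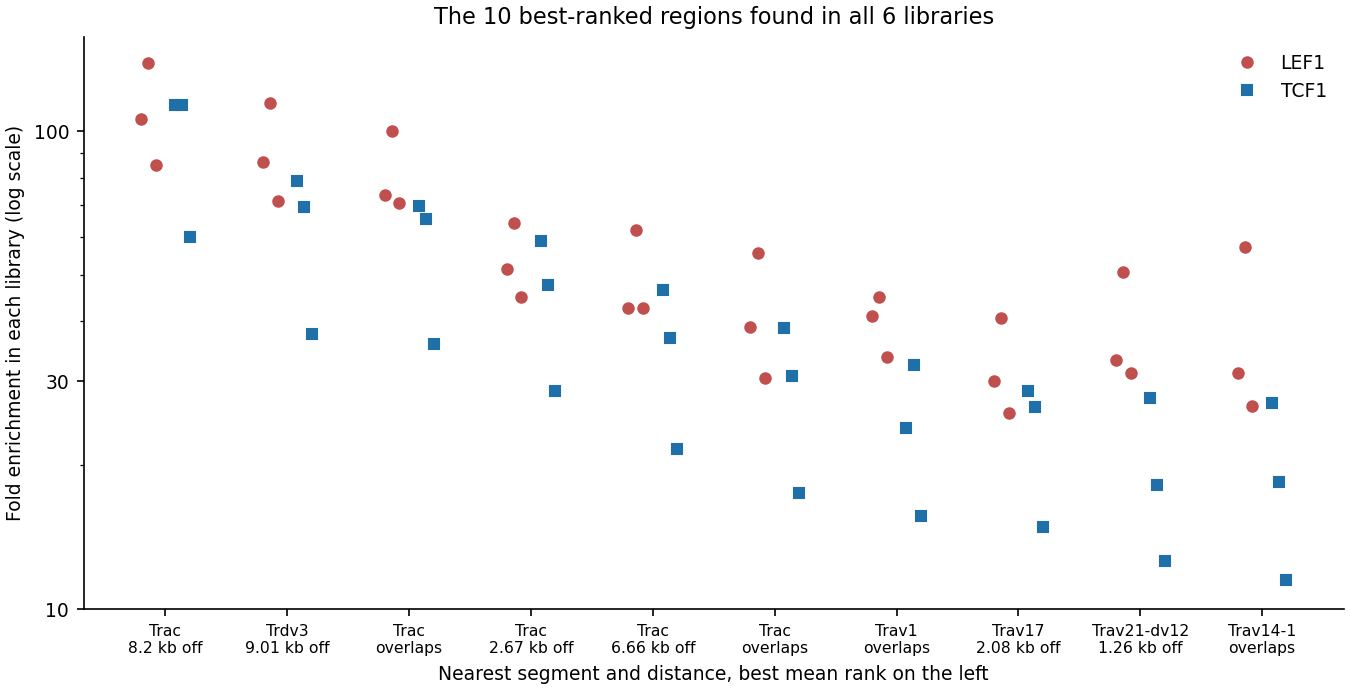
Fold enrichment in each library (y axis, log scale) of the 10 regions with the best mean rank by fold enrichment among those found in all 6 libraries, LEF1 in red to the left of TCF1 in blue, 3 points each. Under each region stand its nearest segment and its distance from it: 5 of the 10 overlap or lie just past Trac, and the points of TCF1 replicate 3 are the lowest in every region.

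The joining segments were crowded with peaks. The Traj interval, 63.8 kb with all 60 segments, held 27, 30 and 22 peaks in LEF1 libraries and 19, 16 and 4 peaks in TCF1 libraries. Its density exceeded that of the variable interval in all 6 libraries, by 39.1, 42.7 and 31.7 peaks per 100 kb for LEF1 and by 27.3, 22.6 and 5.42 for TCF1. The mean excess was 28.1 peaks per 100 kb (exact sign-flip permutation p = 0.031, the smallest possible), and it was 3.09 with lists of equal size at the same p. Lists of equal size thus left out most peaks of the joining segments, which were among the weaker ones of their lists.

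The higher number of LEF1 peaks over the joining segments depended on the length of the lists. The means were 26.3 ± 4.04 peaks for LEF1 and 13 ± 7.94 for TCF1 (SD, n = 3 each), a difference of 13.3 (exact permutation p = 0.1). Without TCF1 replicate 3 the difference was 8.83. With a −log10 q of at least 5 it was 12, from means of 21.7 for LEF1 and 9.67 for TCF1 (exact permutation p = 0.1). With lists of equal size only 2, 3 and 2 LEF1 peaks and 2, 3 and 4 TCF1 peaks were left, and the difference turned to -0.667 (exact permutation p = 0.7). Without TCF1 replicate 3 and with lists of the next shortest length, 22901 peaks, a setting chosen after seeing the data, the means were 17.7 peaks for LEF1 and 15 for TCF1, a difference of 2.67 (exact permutation p = 0.5).

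LEF1 held 40 of the 60 Traj segments and TCF1 held 21, all of them among the 40. Among all genes no longer than the longest segment, 9.22% were held by LEF1 and 8.17% by TCF1. A peak was within 1 kb of 45 Traj segments in at least 1 library. The segments are short and close together, so 1 peak often counted for several neighbours, and the 45 segments were served by 28 merged regions. Of these 28 regions LEF1 held 21 and TCF1 held 11, where the factors held 71.7% and 55.5% of the 38231 regions genome-wide. In all 6 libraries there were 4 of the 28, with 28.5% genome-wide.

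The strongest of them ran between Traj40 and Traj39 (chr14:54177829-54179431), with 26.1, 32.1 and 19.8-fold enrichment in LEF1 libraries and 21.5, 13.9 and 7.61-fold in TCF1 libraries. Its summits lay within 19 bp of each other. The other 3 lay over Traj49, with Traj50 and Traj48 within 1 kb, over Traj48 with Traj47, Traj46 and Traj45 close by, and over Traj37 with its neighbours Traj38 and Traj36. At Traj49 the enrichment was 12.3, 18.6 and 10.7-fold for LEF1 and 9.72, 13.3 and 5.71-fold for TCF1. All 4 lie in the part of the Traj row nearer the delta genes, between Traj50 and Traj36.

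Both ends of the Traj row were faint. Traj61 and Traj58, at the end next to the delta genes, had a peak within 1 kb in LEF1 replicates 2 and 3 and in no TCF1 library, at 5.46 to 7-fold. Traj1, at the end next to Trac, had none in any library, and no peak lay over the last 8.11 kb before the start of Trac, which holds Traj6 to Traj1. Another empty stretch of 10.8 kb held 9 segments, Traj35 to Traj27. Between them, 3 regions around Traj16 to Traj11 were in all 3 LEF1 libraries and in no TCF1 library, at 4.58 to 8.72-fold, a pattern shown by 3.14% of regions genome-wide.

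Peaks of the delta genes lay mostly beside the segments and not over them. The interval chr14:54113468-54149201, with Trdd1, Trdd2, Trdj1, Trdj2, Trdc and Trdv5, held 8, 10 and 7 peaks in LEF1 libraries and 8, 7 and 1 peaks in TCF1 libraries. The diversity segments Trdd1 and Trdd2 and the joining segment Trdj1 had no peak within 1 kb in any library. Trdj2 had one in LEF1 replicates 1 and 2 and in TCF1 replicate 1. Trdc, the constant gene of the delta chain, had one in all LEF1 libraries, at 9.8, 15.2 and 7.82-fold, and in TCF1 replicates 1 and 2, at 7.77 and 9.39-fold.

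Between Trdj2 and Trdc, the stretch known to hold the delta enhancer, 2 regions were held by both factors. They began 1.3 and 2.6 kb from Trdj2. The second, chr14:54139438-54140012, had 9.01, 13.7 and 10.3-fold enrichment in LEF1 libraries and 10 and 9.39-fold in TCF1 replicates 1 and 2. The delta region found in all 6 libraries lay instead between Trdj1 and Trdj2 (chr14:54124507-54125728), with 13.6, 21.9 and 13-fold for LEF1 and 14.3, 12.8 and 6.19-fold for TCF1. Its summits fell within 6 bp of each other, the smallest spread of any region in all 6 libraries.

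Its edge reached 1 to 45 bases into the Gm30275 window printed above, in 5 of 6 libraries. The match ACAAAG is at the other end of that window, outside the region. The Gm30392 window next to Trdv2-2 was covered by a peak over 118 to 300 bases in the 3 LEF1 libraries and 119 and 184 bases in TCF1 replicates 1 and 2.

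Ahead of the delta genes, the 38 kb from Trdv4 to Trdd1 hold no segment. They held 4, 3 and 4 peaks in LEF1 libraries and 4, 4 and 1 peaks in TCF1 libraries. A region 9.97 kb before Trdd1, chr14:54102151-54103501, was in all 6, with 18.6, 28.4 and 15.7-fold enrichment in LEF1 libraries and 18.4, 15.6 and 7.68-fold in TCF1 libraries. On the other side of Trdv4, 3 more regions at 13, 18 and 32.6 kb from it were also in all 6 libraries.

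Trdv5, the variable segment that lies past Trdc and is read in the opposite direction to the others, had a peak within 1 kb at 14.5, 21.3 and 12.4-fold in LEF1 libraries and at 15 and 20-fold in TCF1 replicates 1 and 2. Between Trdv5 and Traj61, 1.68 kb before the first joining segment, the region chr14:54152756-54153321 was found in all 6 libraries. Its enrichment was 24.6, 39.9 and 21.5-fold in LEF1 libraries and 17.3, 19.1 and 11.1-fold in TCF1 libraries. The promoter known to transcribe the first joining segments, TEA, lies on this side of the Traj row.

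**Figure D3:**
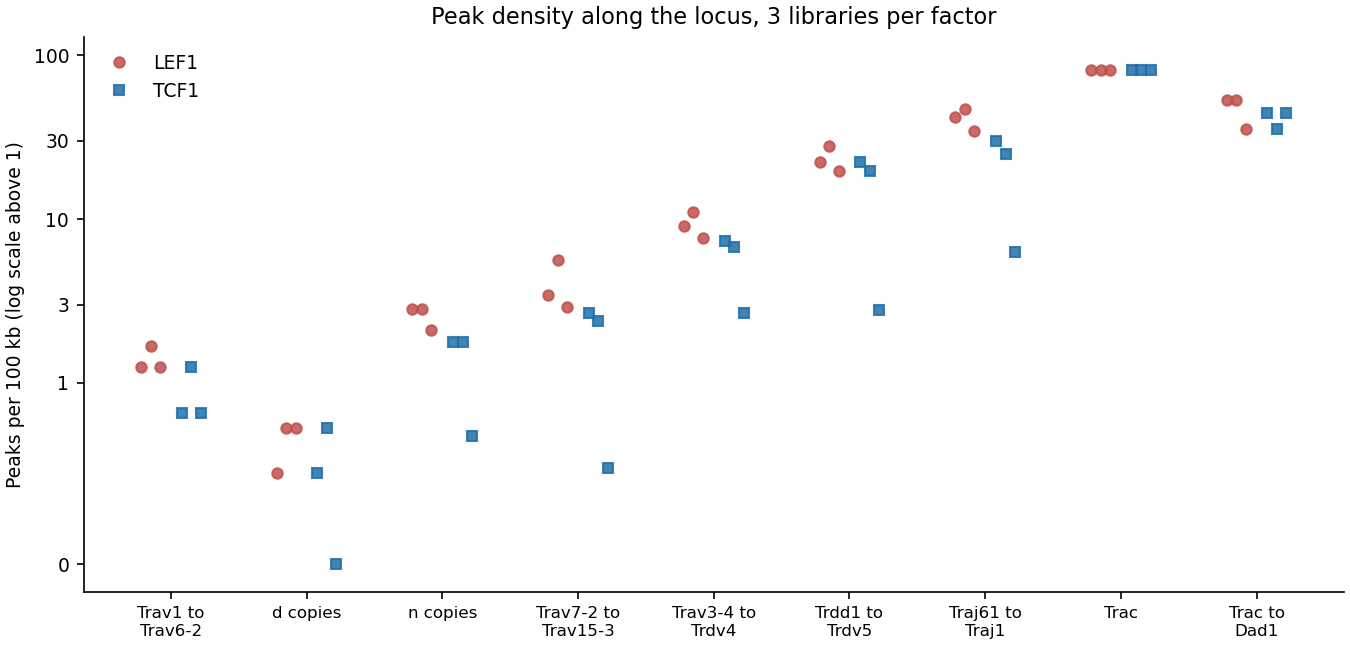
Peaks per 100 kb (y axis, log scale above 1) in 5 blocks of the variable segments, the delta genes, the joining segments, Trac and the interval from Trac to Dad1, one point per library, LEF1 in red to the left of TCF1 in blue. Density was lowest in the d copies, at 0.502 to 0.753 for LEF1 and 0 to 0.753 for TCF1, and highest over Trac.

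The variable segments covered 1647.5 kb and held 53, 71 and 46 peaks in LEF1 libraries and 41, 40 and 14 peaks in TCF1 libraries. Every LEF1 library was above every TCF1 library. The difference was 25 (exact permutation p = 0.1, the smallest possible), and it was 16.2 without TCF1 replicate 3 and 5.67 with lists of equal size. In lists of equal size the counts were 20, 22 and 20 for LEF1 and 15, 16 and 14 for TCF1.

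From the d copies of the Trav segments onwards, peaks became denser towards the delta genes, except in TCF1 replicate 3, where the n copies held 0.704 and the next block 0.531 peaks per 100 kb. Copy number along this stretch was not measured. The block from Trav3-4 to Trdv4, with 15 segments in 298.4 kb, held 27, 33 and 23 peaks in LEF1 libraries and 22, 20 and 8 in TCF1 libraries. The block before it, from Trav7-2 to Trav15-3, with 38 segments in 376.5 kb, held 13, 21 and 11 peaks for LEF1 and 10, 9 and 2 for TCF1. LEF1 held 11 of 15 segments in the Trav3-4 to Trdv4 block and 8 of 38 in the other, and TCF1 held 8 of 15 and 6 of 38.

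Farther away the Trav segments come in duplicated copies, marked d and n in their symbols. The block of d copies, 40 segments in 398.6 kb, held 2, 3 and 3 peaks in LEF1 libraries and 2, 3 and 0 in TCF1 libraries. The block of n copies, 34 segments in 283.9 kb, held 8, 8 and 6 peaks for LEF1 and 5, 5 and 2 for TCF1. The longest stretch of the locus without a peak in any library was 453.1 kb (chr14:52567218-53020281), with 40 segments from Trav2 to Trav6d-7, of which 33 are d copies. Another stretch of 213.9 kb held 24 n copies and no peak. A stretch of 163.1 kb with 13 segments from Trav7-2 to Trav7-5 also had no peak. The d and n copies are nearly identical in sequence. Many segments from Trav7-2 to Trav15-3 have the same numbers without the letter, such as Trav14-1 beside Trav14d-1 and Trav14n-1. How reads that fit several copies were treated is not given in the sources used here. In all these blocks the absence of a listed peak is therefore uncertain, and so is the copy to which a listed peak belongs.

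Among the 130 Trav segments LEF1 held 24 and TCF1 held 19, all of them among the 24. They belonged to 15 of 23 Trav families by number for LEF1 and to 11 for TCF1. The Trav14 and Trav15 families had the most, with 4 of 9 segments held by LEF1 in each, and with 4 and 3 held by TCF1. The Trav4 and Trav5 families, with 9 segments each, had no peak within 1 kb in any library. Trav1, the farthest segment from Trac, had 41, 44.9 and 33.7-fold enrichment in LEF1 libraries and 23.9, 32.4 and 15.7-fold in TCF1 libraries.

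The Trav14 family, which encodes Valpha2, was held at Trav14-1, Trav14-3, Trav14n-3 and Trav14d-3-dv8 by both factors. Trav14-1 (gene ID 436467, chr14:53554057-53554558) had 31.2, 57.3 and 26.6-fold enrichment in LEF1 libraries and 27, 18.5 and 11.5-fold in TCF1 libraries. Trav14n-3 had 27.3, 34.5 and 23-fold in LEF1 libraries and 23.5, 20.5 and 11.1-fold in TCF1 libraries. Trav14-3 had 19.9, 29.3 and 14.6-fold in LEF1 libraries and 11.4, 9.22 and 4.83-fold in TCF1 libraries. Trav14-2 had a peak in LEF1 replicate 2 only, and the 4 other members had none.

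Besides Trav1, Trav14-1, Trav14-3 and Trav14n-3, Trav11n was the only Trav segment with a peak within 1 kb in all 6 libraries. Its enrichment was 12.1, 34.9 and 23-fold for LEF1 and 18.7, 15.4 and 8.38-fold for TCF1. Trav13n-4, Trav13-1, Trav13-5, Trav6n-6 and Trav15-1-dv6-1 had one in all libraries but TCF1 replicate 3. Trav8-2, Trav18 and the pseudogene Trav22 had one in all 3 LEF1 libraries and no TCF1 library, at 4.28 to 10.3-fold.

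Of the delta variable segments, Trdv2-1 was reached in all 6 libraries, at 12.7, 20.8 and 11.1-fold for LEF1 and 12, 12.1 and 5.83-fold for TCF1. Trdv1 and Trdv2-2 lacked a peak in TCF1 replicate 3 only. The pseudogene Trdv3 had one in all LEF1 libraries and in TCF1 replicate 1, and Trdv4 had none. So 5 of 6 Trdv segments were held by LEF1 and 4 of 6 by TCF1.

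Most peaks near variable segments sat just before the segment. Of the variable-interval peaks, 35, 43 and 31 in LEF1 libraries and 27, 25 and 6 in TCF1 libraries had their summit in a segment or within 1 kb of it. The median summit lay at -100, -118 and -91 bp from the start of the segment in LEF1 libraries and at -113, -89 and -115 bp in TCF1 libraries. Negative values are before the start, which is the end farther from Trac, from which these segments are read. A window from 500 bp before to 100 bp after the start held 74.3%, 74.4% and 77.4% of these summits for LEF1 and 70.4%, 76% and 100% for TCF1. That window is 24% of the median length searched. Variable segments are known to have their promoters at this side. Past the end of the segment lay 6, 9 and 4 summits in LEF1 libraries and 4, 4 and 0 in TCF1 libraries. Among them were those of Trav13n-4 and Trav13-1, in all libraries but TCF1 replicate 3.

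**Figure D4:**
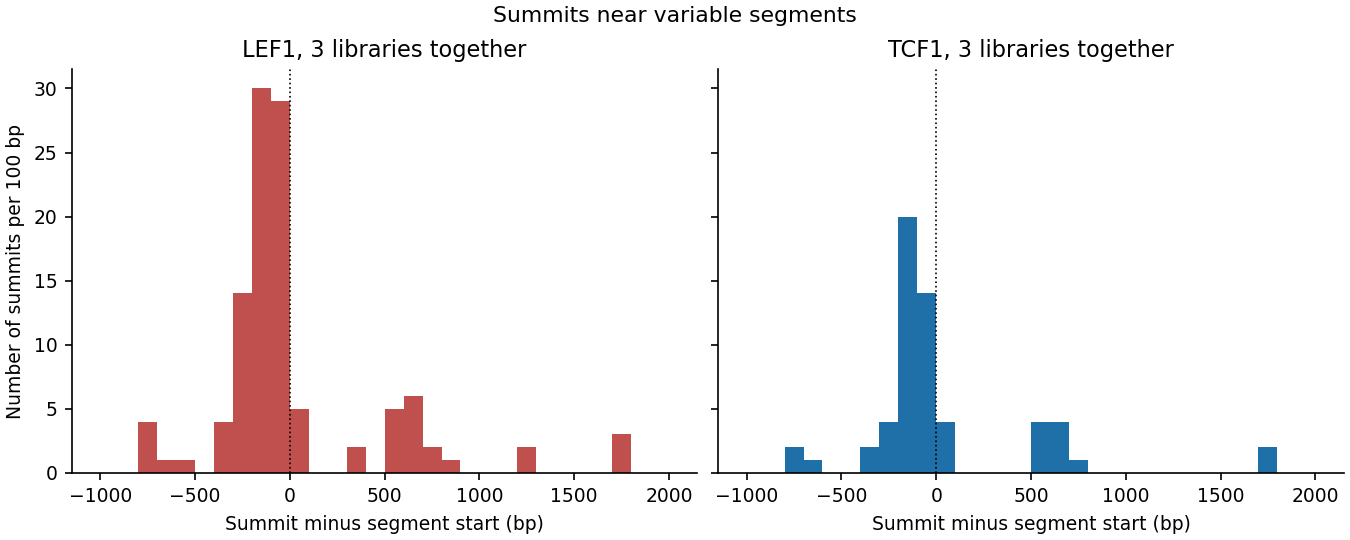
Number of peak summits per 100 bp (y axis) by distance from the start of the nearest variable segment (x axis, bp, negative before the start), LEF1 on the left and TCF1 on the right, with the 3 libraries of a factor added together. In both panels most summits fall between 300 bp before the start and the start itself.

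Not all strong regions of the variable interval were at a segment. By mean rank in fold enrichment, the best region between Trav1 and the end of Trac was chr14:53991108-53991937, which is 9.01 kb from Trdv3, the nearest segment. From Trav1 to Dad1 it came after the region 8.2 kb past Trac. Its enrichment was 86.3, 114.3 and 71.6-fold in LEF1 libraries and 78.8, 69.3 and 37.7-fold in TCF1 libraries, and it stood within the best 0.546% to 2.69% of each list. Its summits lay within 26 bp of each other. By −log10 q its mean percentile was 1.27, behind 1.07 for the region at the start of Trac. A region 2.08 kb before Trav17 had 30, 40.7 and 25.8-fold in LEF1 libraries and 28.6, 26.5 and 14.9-fold in TCF1 libraries, and one 1.26 kb from Trav21-dv12 had 33.2, 50.8 and 31.2-fold in LEF1 libraries and 27.7, 18.2 and 12.6-fold in TCF1 libraries.

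Counted over the whole locus, LEF1 held 72 of 202 segments, 35.6%, and TCF1 held 46, 22.8%. Both shares were above those of genes no longer than the longest segment, at 9.22% and 8.17%, and that of TCF1 was below its share of all genes, 24.1%. LEF1 held every segment that TCF1 held. There were 26 segments held by LEF1 and not by TCF1, where 2.79% of all genes and 1.39% of short genes were, and 19 of the 26 were Traj segments. Neighbouring Traj segments often shared a peak. Counted by merged regions of the locus, the share held by LEF1 and not by TCF1 was 21%, with 18.1% genome-wide. A peak was within 1 kb in all 6 libraries for 16 segments, where 15.1% of all genes and 4.68% of short genes had that.

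The number of segments with a peak was 69, 85 and 68 in LEF1 libraries and 55, 50 and 16 in TCF1 libraries, a difference of 33.7 (exact permutation p = 0.1). It was 21.5 without TCF1 replicate 3 and 4.67 with lists of equal size (exact permutation p = 0.3). Pseudogenes were held too: LEF1 held 6 of 17 variable pseudogenes against 23 of 119 variable genes, and 8 of 9 joining pseudogenes against 33 of 53 joining genes. TCF1 held 3 of 17 and 20 of 119, and 3 of 9 and 18 of 53.

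Merged over the 6 libraries, the peaks of the locus formed 119 regions. LEF1 held 85 of them, 71.4%, and TCF1 held 60, 50.4%, near the genome-wide 71.7% and 55.5%. LEF1 held all 60 of the regions that TCF1 held, that is 70.6% of the LEF1-held regions (95% exact Clopper-Pearson interval 59.7% to 80%, counting error only), where the genome-wide share was 74.7%. LEF1 held 25 regions that TCF1 did not, 21% of the regions of the locus, with 18.1% genome-wide. No region was held by TCF1 and not by LEF1, with 1.93% genome-wide.

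In all 3 LEF1 libraries and no TCF1 library there were 7 regions, 5.88% of those of the locus, with 3.14% genome-wide. They were the 3 near Traj16 to Traj11, those at Trav8-2, Trav18 and Trav22, and one 1.9 kb from Trav13-1. Another 29 regions came from a single library, and in 27 of these it was LEF1 replicate 2, which had the longest list. Found in all 6 libraries were 24 regions, 20.2% of those of the locus, with 28.5% genome-wide. From Trav1 to Dad1 there were 28 such regions, and their summits spread over 6 to 310 bp across libraries, with a median of 42.5 bp.

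Ranks by fold enrichment and by −log10 q differed most, on average over the libraries, at 2 places. A region over the end of Trac, chr14:54223684-54224127, had 14.5, 20.3 and 13.3-fold enrichment in LEF1 libraries and 14.1, 14.5 and 5.69-fold in TCF1 libraries. By fold it stood at percentile 35.6, 26.1 and 37.1 of the LEF1 lists and 37, 35.4 and 88.4 of the TCF1 lists. By −log10 q it stood at percentile 11.8, 7.55 and 12.3 of the LEF1 lists and 13.2, 11.5 and 37.8 of the TCF1 lists, so it ranked better by q in all 6.

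The region over Trav14-1 ranked at percentile 10.9, 4.47 and 12.7 by fold in LEF1 libraries and 14.5, 25.3 and 38.1 in TCF1 libraries. By −log10 q it ranked at 3.22, 1.53 and 4.25 in LEF1 libraries and at 5.33, 6.37 and 13.4 in TCF1 libraries. A gain of 15 or more percentile points was seen for 0.47% to 0.827% of all peaks in the LEF1 lists and 0.82% to 2.26% in the TCF1 lists. The region over the end of Trac had such a gain in all 6 libraries, and that over Trav14-1 in TCF1 replicates 2 and 3 only. A smaller average gain was seen 7.79 kb from Trav1, at percentile 59.3, 44.6 and 51.4 by fold and 46.3, 33 and 38.8 by −log10 q in LEF1 libraries. In TCF1 libraries that region was at 30.6, 61.4 and 90.7 by fold and 28.7, 47.8 and 92.5 by −log10 q. These regions were singled out after their values were seen, and the cause of the gain was not tested. A higher q at the same fold goes with a higher signal and a higher local background in the caller's calculation.

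**Figure D5:**
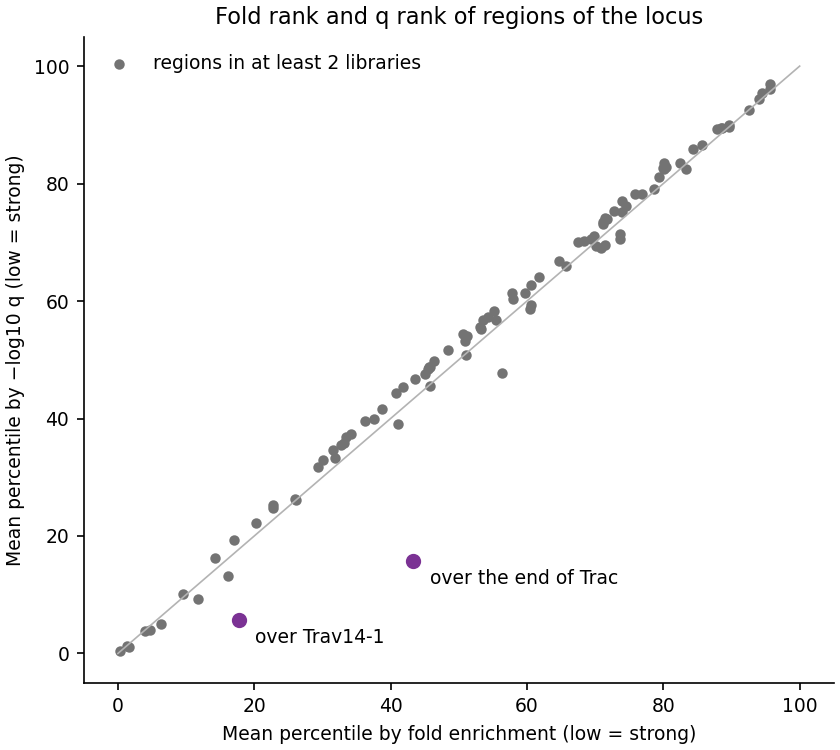
Mean percentile within the lists by fold enrichment (x axis) and by −log10 q (y axis) of regions of the locus found in at least 2 libraries, where low means strong and the line marks equal ranks. The regions over Trav14-1 and over the end of Trac lie farthest below the line.

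The other genes that take part in making the receptor were counted by the same 1 kb rule. Of 11 genes of receptor partners, each factor held 7, namely the CD3 chains Cd3d, Cd3e and Cd3g, the zeta chain Cd247, the adaptor Trat1, and the beta constant genes Trbc1 and Trbc2, which are near-identical copies. Neither factor held Ptcra, the partner of the beta chain in immature thymocytes, or the gamma constant genes Trgc1, Trgc2 and Trgc4. Of 12 genes of V(D)J recombination, each factor held 11, and Rag1 had no peak. All 12 genes of factors known to act on the alpha and delta enhancers, such as Ets1, Runx1, Gata3, Lef1 and Tcf7, were held by both. Apart from Trbc1, Trbc2, Trgc1 and Trgc2, these genes are longer than the longest segment, so their shares are not to be read against the segments. The 26% and 24.1% of all genes given above are not matched for length either. Of the 49943 genes, 21051 are no longer than the longest segment.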

How the data were processed

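Peak lists of 3 LEF1 and 3 TCF1 CUT&RUN libraries were analysed, with groups and replicate numbers from the sample titles. Build GRCm38.p6, MACS3 3.0.3, Bowtie2 2.4.4, Trim Galore 0.6.6, FastQC 0.12.1, deepTools 3.5.1 and Picard are named, per the submitters' processing notes. Not given in the sources used here are the caller's options and control and the treatment of reads that map to several places. The authors called peaks per library, as the deposited peak names carry the library. The deposited fold enrichment of a peak is a ratio of its signal to the local background. The deposited p-value and q-value are −log10 values, and the lowest −log10 q was 2 to 2.06. The deposited score, a whole number, was not used. All these are the authors' values of single peaks, and they served only for description, ranking and filtering within 1 list. Read depth is unknown, so list length is the measure of sensitivity here.

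Each interval on chromosomes 1 to 19, X or Y counted once, by an overlap of at least 1 bp. Regions are intervals merged over the 6 libraries. Segment positions and biotypes came from the RefSeq gene table of the same build, which has neither strand nor exons, so exons and introns of Trac and Trdc were not told apart; promoter windows came from RefSeq with the same build. Group means were compared by exact permutation over 20 assignments (two-sided, smallest p 0.1) and values within libraries by exact sign flips over 64 patterns (smallest p 0.031); the threshold was 0.05, with Benjamini-Hochberg adjustment over the 10 tests. Equal list sizes keep the 11423 peaks with the highest −log10 q. Alternatives were equal list sizes, a −log10 q of at least 5, 50% of the peak inside, another margin, another count of libraries to hold, leaving out a library and the replicate block. Named were the constant, diversity and end segments, the 25 segments and the 10 regions in most libraries with the best ranks, and members of 3 gene lists; other segments are named as examples. The members, lists and rules were chosen with earlier results of these data known. Analysis used Python 3.11.15, pandas 2.3.3, NumPy 2.4.6 and SciPy 1.17.1, and the code was tested on simulated data.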

Additional observations from a re-analysis of the deposited data

How the results depend on the processing

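With lists of equal size 2 differences between the factors reversed: LEF1 minus TCF1 was -0.667 peaks over the joining segments (p = 0.7) and -0.333 from Trac to Dad1 (p = 1, exact permutation tests), against 13.3 and 0.667 in the full lists. Equal lists leave out the weaker peaks of the longer lists, and the cause of the reversals was not tested. In equal lists Traj49 had a peak within 1 kb in 2 libraries, against 6 in the full lists. Trdc, Trdj2, Traj61 and Traj58 had one in 0 libraries, against 5, 3, 2 and 2. The other 18 named segments and regions looked at this way kept their number of libraries. The share of LEF1-held regions also held by TCF1, 70.6% in the full lists, was 32.4% when all 3 libraries of a factor were required, 27.9% to 77.6% with 1 library left out, and 80% with equal list sizes and without TCF1 replicate 3, an alternative chosen after seeing the data. The low values, 27.9% and 28.2%, came from leaving out TCF1 replicate 1 or 2, after which TCF1 replicate 3 has to hold every region. With 1 library left out, the excess of joining over variable density was 25.2 to 32.7 peaks per 100 kb and that of the locus over the rest of chromosome 14 was 33.2 to 42.2 peaks per Mb, all at p = 0.0625, the smallest that 5 libraries allow in the sign-flip permutation. With equal list sizes and without TCF1 replicate 3 they were 23.4 and 35.1, also at an exact permutation p = 0.0625. The other differences kept their direction under every alternative run. With 1 library left out, LEF1 minus TCF1 was 25.5 to 52 locus peaks, 21.5 to 41 segments and 8.83 to 16.3 joining peaks. With the replicate number as a block the differences were as large as before (42.3 locus peaks, 33.7 segments, 13.3 joining and 25 variable peaks, all at an exact sign-flip permutation p = 0.25, the smallest possible with 3 pairs; 0.667 peaks from Trac to Dad1 at p = 0.75). Same-numbered libraries deviated from their group means with correlations of -0.0739, 0.288 and 0.362 over 10890 regions, so the numbers were not taken to pair the libraries. Read depth is not known, and a missing peak shows only that none was listed.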
